A study of Mus musculus with 40 samples.

Results

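Pth, Adm, Nts, Ghrh, Apln and Penk encode the precursors of parathyroid hormone, adrenomedullin, neurotensin, growth hormone-releasing hormone, apelin and the enkephalins. These 6 of the 39179 genes in the RNA table were selected on their RNA level, which had already been seen to be high in cultured Th2 cells, and were found by symbol, so their levels and differences are given as descriptions with no test. RNA was read in 18 libraries of CD4 T cells from the spleen of C57BL/6 mice, and chromatin in 22 further samples that the authors condensed into 13 peak lists. Naive cells came straight from the mouse (4 wild-type libraries, Setdb1+/+, written WT, and 3 labelled Setdb1-/-, written KO). Th2 cells were harvested on day 6 of culture with anti-CD3 (10 ug/mL) and anti-CD28 (1 ug/mL), which were taken away on day 3, IL-4 (50 ng/mL), anti-IFN-gamma (10 ug/mL) and, from then on, IL-2 (30 IU/mL), as 3 WT and 3 KO libraries. Th2-Th1 cells were Th2 cells moved for 2 more days to IL-12 (10 ng/mL) and anti-IL-4 (10 ug/mL), as 2 WT and 3 KO libraries. One H3K9me3 list came from Th2 cells labelled Suv39h1-/-. Neither the Cre line or promoter behind the Setdb1 deletion nor the animal behind each replicate is stated in the labels, so any p measures only the spread between these libraries.

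Peptide hormones are made as long precursors that enter the secretory pathway, are cut at pairs of basic residues by proprotein convertases such as furin, are trimmed by carboxypeptidases and are then released to act on receptors of the G-protein-coupled type. In the body, parathyroid hormone raises blood calcium, adrenomedullin and apelin widen blood vessels, neurotensin acts in gut and brain, growth hormone-releasing hormone drives the pituitary, and enkephalins act on opioid receptors. Lymphocytes are known to make enkephalin precursors, and adrenomedullin is made by many cell types under stress. SETDB1 is a histone methyltransferase whose product, H3K9me3, is found on silent chromatin.

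The promoters of 4 members are shown first because peaks of the deposited lists lay over them. Each run is the 250 bases before a listed start site on the gene's strand, on GRCm38.p6 (mm10). For Pth the listed start lies inside the RefSeq gene, which reaches up to 113388672, so part of its window overlaps the gene. Capitals mark matches, on either strand, to the following motifs. They are TATAAA (the TATA box sequence), GATAA (GATA factors), TGANTCA (AP-1), TGACGTCA (CREB), ACGTG (the core of E-box and hypoxia elements) and the palindromic STAT motif.
Pth, chr7:113388574-113388823, minus strand: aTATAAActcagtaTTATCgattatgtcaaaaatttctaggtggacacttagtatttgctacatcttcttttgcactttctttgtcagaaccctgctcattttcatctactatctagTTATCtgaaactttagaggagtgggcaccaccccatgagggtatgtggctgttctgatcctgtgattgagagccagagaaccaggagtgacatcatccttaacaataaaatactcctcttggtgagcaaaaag
Adm, chr7:110627407-110627656, plus strand: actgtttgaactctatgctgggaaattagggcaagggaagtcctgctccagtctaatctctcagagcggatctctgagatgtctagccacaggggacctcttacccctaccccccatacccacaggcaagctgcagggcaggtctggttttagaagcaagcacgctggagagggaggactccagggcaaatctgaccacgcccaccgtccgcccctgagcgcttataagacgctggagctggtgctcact
Nts, chr10:102490419-102490668, minus strand: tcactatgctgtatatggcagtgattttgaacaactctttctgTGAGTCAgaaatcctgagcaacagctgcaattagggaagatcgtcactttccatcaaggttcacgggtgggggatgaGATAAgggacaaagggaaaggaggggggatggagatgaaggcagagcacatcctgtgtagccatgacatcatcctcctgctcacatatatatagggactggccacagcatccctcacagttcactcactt
Apln, chrX:48034854-48035103, minus strand: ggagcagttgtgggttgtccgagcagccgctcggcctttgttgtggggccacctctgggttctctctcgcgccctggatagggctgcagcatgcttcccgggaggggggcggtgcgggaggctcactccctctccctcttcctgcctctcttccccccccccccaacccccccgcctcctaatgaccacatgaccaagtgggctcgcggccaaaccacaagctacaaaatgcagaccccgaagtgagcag
The Pth window held TATAAA, found in 12.4% of all 32851 promoters of this length, and GATAA (22.6%) at 2 places. Its TATAAA lay at the edge of the window farthest from the listed start site, so it is given only as a sequence match. The Nts window held TGANTCA, the core bound by AP-1 factors (6.75% of promoters), and GATAA. The Adm and Apln windows held none of these 6 motifs. GGAAA, the core of NFAT sites, was also searched but is not capitalised, being in 55.6% of promoters. It was in the Adm and Nts windows and not in those of Pth and Apln. GC content was 39.2% for Pth, 48.0% for Nts, 56.8% for Adm and 65.2% for Apln, beside a median of 52.4%. Ghrh had 2 promoters in the table, both with ACGTG (16.6% of promoters) and GGAAA and 1 with TATAAA, at -31, and Penk had no entry.

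Before the members, the libraries were checked. Total reads ran from 10.0 to 18.5 M in naive cells and from 10.1 to 13.3 M in Th2 WT, but from 36.3 to 44.7 M in Th2 KO. After the move to IL-12 they were 18.9 and 19.8 M for WT cells and 37.2 to 37.6 M for KO cells. More genes were detected in 3 naive libraries (WT replicate 1, 21915; WT replicate 3, 25556; KO replicate 2, 22890) than in the other 4, which held 15296 to 19359. Setdb1 itself was lower in naive KO (1006 ± 87.2, SD, n = 3) than in naive WT (1310 ± 66.4, n = 4), a log2 difference of -0.38 ± 0.11 (SE) with an adjusted p of 0.0319 by limma. That call was lost without the 3 naive libraries with more genes detected (adjusted p = 0.341). In Th2 cells the gene was higher in the libraries labelled KO (8485 ± 503 against 822.6 ± 121, log2 3.37 ± 0.12, adjusted p = 7.22e-14), and likewise in Th2-Th1 cells (6244 ± 1020 against 1603 ± 12.1, log2 1.95 ± 0.13, adjusted p = 3.04e-09). Reads summed over a gene do not show whether the deleted exons are missing, so this neither bears out the label nor goes against a deletion, and KO below means the library labelled KO. The H3K9me3 lists held 12233 peaks in Th2 WT and 1708 in Th2 KO. No T cell marker of a list of 8 was at 0 in any group. Here and below, values are the authors' size-factor-normalised read counts, log2 differences are on log2(value + 1), and levels of different genes are not compared because no transcript lengths were used.

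The first question was how the members differed between naive and Th2 cells. Every member was higher in all 3 Th2 WT libraries than in all 4 naive WT libraries, where none exceeded 6.24. Among the 17254 genes tested, 31.0% were higher without overlap in this comparison, which was also the one that chose the members. The median log2 difference was 8.22 over the members and -0.14 over all genes tested.

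Adm, a vessel-widening hormone, was at 0 in all 4 naive WT libraries and at 1665, 1518 and 2023 in Th2 WT replicates 1 to 3. With a floor of 3 reads per library for the naive cells, this was at least 431-fold higher. Apln, the apelin precursor, stood at 379.1, 426.8 and 339.3 in Th2 WT (382 ± 43.8, n = 3) and at 1.48 ± 1.95 (n = 4) in naive WT, a log2 difference of 7.61 ± 0.70. Ghrh was at 129.0, 107.6 and 62.4 in Th2 WT and at 0 in every library of the other 5 groups. It was at least 24.7-fold above naive WT by the same floor, and no other member was limited to a single group.

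Pth was at 0 in naive WT and at 336.7, 248.6 and 212.0 in Th2 WT, at least 66.0-fold higher. Nts, which encodes neurotensin and neuromedin N, was at 14376, 15411 and 11079 in Th2 WT, while naive WT held 5.43 in replicate 3, from 3 reads, and 0 in the rest. Penk, the enkephalin precursor, stood at 896 ± 122 (n = 3) in Th2 WT and 2.92 ± 3.38 (n = 4) in naive WT, a log2 difference of 8.42 ± 0.55. Members thus ranged in their log2 difference from 6.59 for Ghrh to 13.05 for Nts. In bulk RNA, fewer cells making a transcript and less transcript per cell cannot be told apart.

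**Figure D1:**
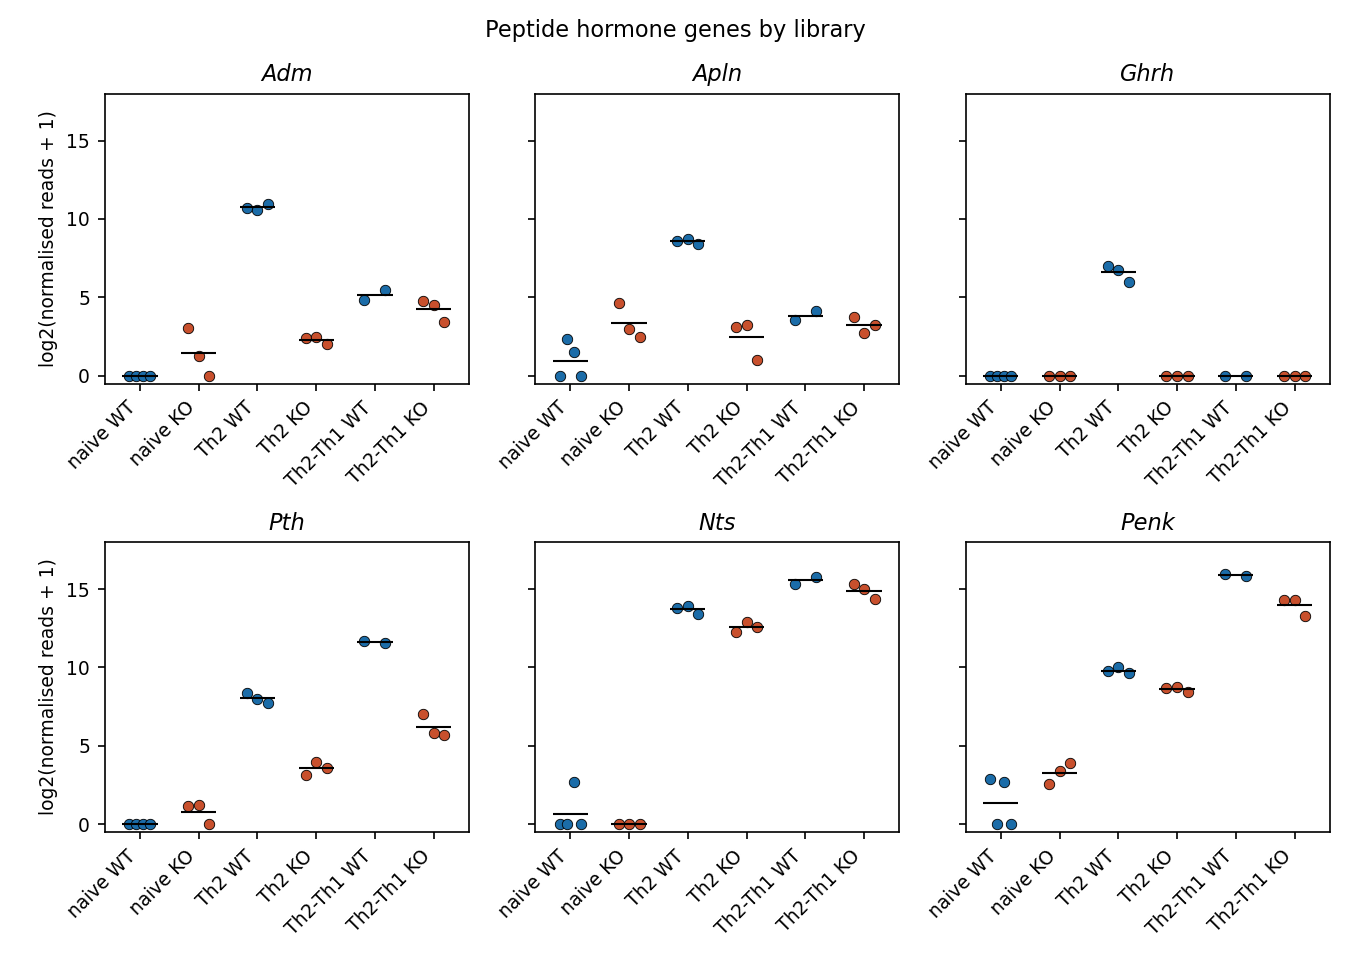
Level of each member in each library, as log2(normalised reads + 1), in the 6 groups; points are libraries (blue WT, orange KO) and black lines are group means. Adm, Apln and Ghrh are high only in Th2 WT, while Nts and Penk are higher still in Th2-Th1 cells of either label and Pth in those of WT.

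The second question was how the members differed after the move to IL-12 and anti-IL-4. The parts of IL-12, anti-IL-4 and 2 more days of culture cannot be told apart. Nor can that of any change in IL-4, anti-IFN-gamma, anti-CD3 or anti-CD28 at the move. In WT cells the members split 3 and 3: Pth, Nts and Penk were higher in Th2-Th1 than in Th2 without overlap (32.6% of genes tested did so upward), and Adm, Apln and Ghrh were lower without overlap (30.1% downward). The median log2 difference over the members, -1.46, therefore describes neither set. This comparison and the one above share the Th2 WT libraries.

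Penk was at 64338 and 58140 in the Th2-Th1 WT libraries, 68.3-fold above Th2 WT (log2 6.10 ± 0.66). Pth was at 3359 and 3046, 12.0-fold above (log2 3.61 ± 0.54). Nts was at 41009 and 56517, 3.58-fold above (log2 1.84 ± 0.54), with the lower of its Th2-Th1 libraries still well over the highest Th2 one. Adm was at 27.2 and 43.0 in Th2-Th1 WT, 49.5-fold below Th2 WT (log2 -5.61 ± 0.71). Apln was at 10.6 and 16.3, 28.4-fold below (log2 -4.75 ± 0.84). Ghrh had no read in either library, which with the floor was at least 28.4-fold lower.

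In KO cells 4 members were higher after the move and none lower. Penk (42.2-fold, log2 5.32 ± 0.59), Pth (7.01-fold, log2 2.60 ± 0.49), Nts (5.04-fold, log2 2.31 ± 0.48) and Adm (4.92-fold, log2 1.96 ± 0.64) were higher in Th2-Th1 KO than in Th2 KO without overlap, against 24.7% of genes tested. Apln overlapped and Ghrh was at 0 in all 6 libraries. Adm thus differed upward in KO, from 4.37, 4.48 and 3.00 to 26.4, 22.0 and 9.85, and downward in WT. For Adm, every KO value after the move was under every Th2 WT value.

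**Figure D2:**
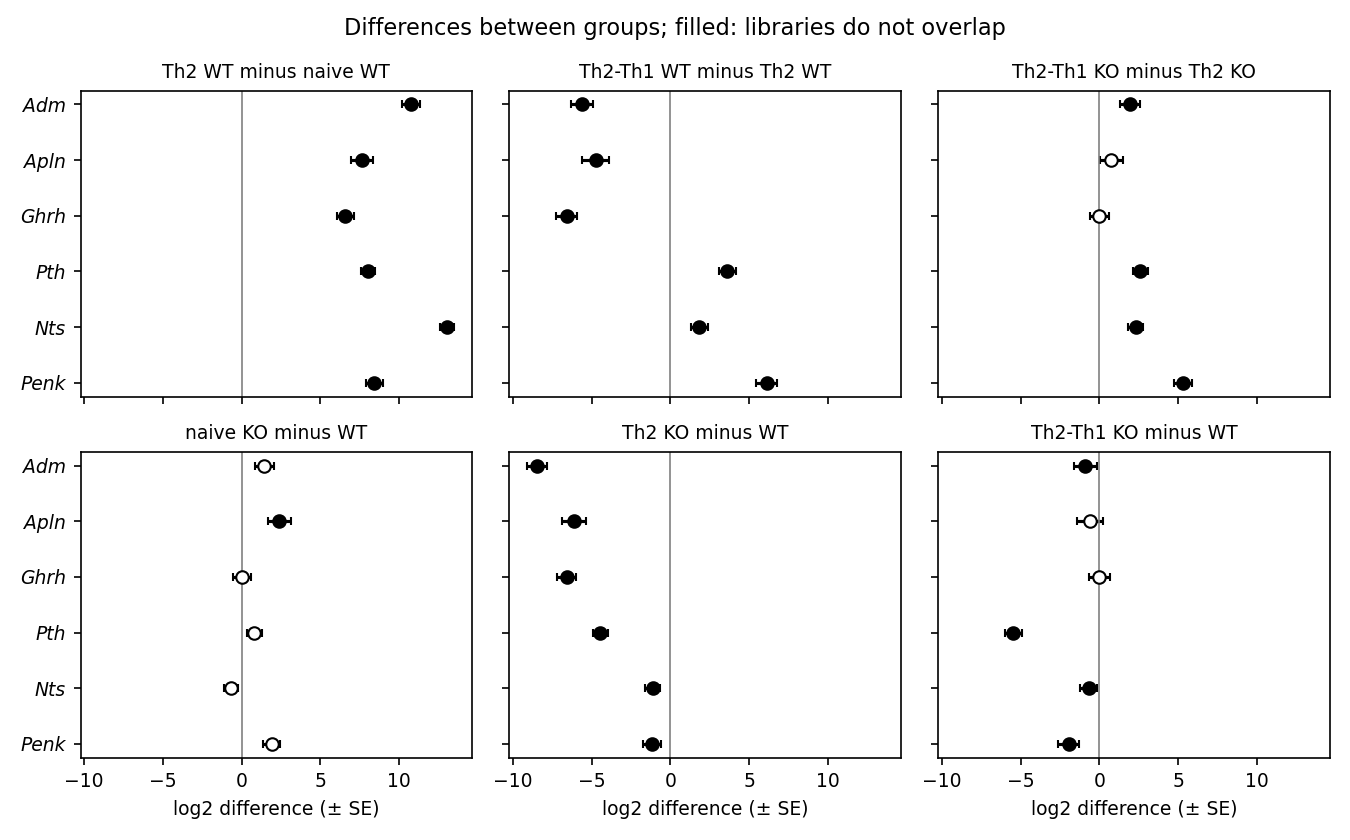
Log2 difference ± SE of each member in 6 comparisons of groups; filled circles mark members whose libraries do not overlap between the groups, open circles those that do. All 6 points lie above 0 for Th2 against naive cells and below 0 for Th2 KO against WT, and they split 3 and 3 for the move to IL-12 in WT cells.

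The third question was how the members differed by Setdb1 label. In Th2 cells all 6 were lower in the 3 KO than in the 3 WT libraries without overlap, beside 29.8% of genes tested, and none was higher (34.8% of genes tested). The members' median log2 difference was -5.29, and that of all genes was 0.13. The members had been chosen as high in Th2 WT, one of the groups compared here, so no more is read from this count.

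The members that were lower after the move in WT cells differed most by label. Both comparisons use the same Th2 WT libraries, in which the members were chosen as high, so nothing is read from this link. Adm was at 4.37, 4.48 and 3.00 in Th2 KO, 439.5-fold under Th2 WT (log2 -8.46 ± 0.64). Apln was at 5.69 ± 4.09 (n = 3), 67.1-fold under WT (log2 -6.13 ± 0.75). Ghrh had no read in the deeper KO libraries, at least 74.1-fold under WT. Pth was at 7.95, 14.8 and 11.0 in Th2 KO, 23.7-fold lower (log2 -4.46 ± 0.49). Nts and Penk kept high levels, at 4930, 7677 and 6045 and at 397 ± 39.6 (n = 3), 2.19-fold and 2.26-fold under WT (log2 -1.14 ± 0.48 and -1.17 ± 0.59).

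In Th2-Th1 cells 4 members were lower in KO than in WT without overlap, beside 27.7% of genes tested, none was higher (32.1%), and with TMM scaling only 2 were lower without overlap. Pth was 40.6-fold lower, at 131.6, 54.6 and 50.3 against 3359 and 3046 (log2 -5.47 ± 0.54). Penk was 3.66-fold lower, at 20248, 20167 and 9830 against 64338 and 58140 (log2 -1.94 ± 0.66). Nts (log2 -0.67 ± 0.54) and Adm (log2 -0.89 ± 0.71) were separated by narrow gaps: the highest KO value of Adm was 26.4 and its lowest WT value 27.2. Apln overlapped and Ghrh was at 0 throughout.

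In naive cells all members were near 0 under either label. Apln alone was higher in KO without overlap (4.59 to 23.5 against 0 to 4.11), beside 9.66% of genes tested, and none was lower (6.92%); 4 reads were the fewest behind a KO value. Without the 3 naive libraries that stood apart, 2 members were separated, Penk being the other.

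Markers of other cell types were set beside these differences. The summed level of 8 endothelial and stromal markers was 5019 to 6000 in Th2 WT, 2554 to 2683 in Th2 KO, 239 to 341 in Th2-Th1 WT and 265 to 356 in Th2-Th1 KO. This sum was thus lower wherever Adm, Apln and Ghrh were lower than in Th2 WT. Cdh5 and Tek of that list were at 0 in Th2 WT. Pecam1 alone made up nearly all of the sum, at 4993 to 5950 in Th2 WT and 2416 to 2483 in Th2 KO. In naive WT, where the members were near 0, the sum was 3826 to 4099 and Pecam1 stood at 3712 to 4040. The 7 myeloid markers summed to 1609 to 2107 in Th2 WT, 394 to 499 in Th2 KO, 1977 to 2368 in Th2-Th1 WT and 603 to 1325 in Th2-Th1 KO, with Lyz2 and Fcer1g at 0 in Th2 WT. The 7 mast cell and basophil markers summed to 0 to 14.1 in Th2 WT, with 5 of them at 0, to 290 to 405 in Th2 KO, to 3.49 to 16.5 in Th2-Th1 WT and to 51.1 to 64.5 in Th2-Th1 KO. In Th2 KO the sum was nearly all Cpa3 (290 to 405), and Fcer1a, Ms4a2, Mcpt4 and Tpsb2 were at 0. The 8 parathyroid and neuroendocrine markers summed to 145 to 187 in Th2 WT, 135 to 180 in Th2 KO, 41.8 to 76.8 in Th2-Th1 WT and 78.8 to 93.6 in Th2-Th1 KO. Of these, Neurod1 was at 0 in Th2 WT, Casr in Th2 KO, Gcm2 and Neurod1 in Th2-Th1 KO, and Gcm2, Casr, Insm1 and Neurod1 in Th2-Th1 WT. Mean Gcm2 was 6.04 in naive WT, 45.8 in Th2 WT and 8.91 in Th2 KO, and mean Casr was 17.4 in Th2-Th1 KO. By limma 2 of the 6 tested genes of this list were higher and none lower in Th2 WT than in naive WT. In Th2 KO against WT 1 was higher and 2 were lower. The 6 Th2 markers, among them Gata3 and Il4, summed to 13409 to 14011 in Th2 WT and 9115 to 12484 in Th2 KO. After the move the sum was higher, at 359482 to 409942 in WT and 32722 to 72064 in KO. By limma only 3 of the 6 were higher and 1 was lower after the move, under either label. Mean Il4 went from 1957 to 37334 in WT and from 617 to 3101 in KO. Mean Gata3 went from 2169 to 3087 in WT and from 2240 to 1301 in KO. The 6 Th1 markers summed to 1347 to 1510 in Th2 WT and 3232 to 3979 in Th2 KO. After the move they summed to 1515 to 1539 in WT and 15637 to 26912 in KO. By limma 4 of these 6 were higher and 1 was lower after the move, under either label, so the WT sum hides changes in single genes. Mean Tbx21 went from 0.67, under the floor of 3 reads per library (6.37), to 168 in WT and from 13.3 to 2171 in KO. Mean Ifng went from 7.14 to 57.3 in WT and from 82.6 to 12193 in KO. The part of these lists in the members' differences was not tested.

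By a fixed measure, the root mean square difference between 2 centred profiles of group means over the 6 groups, 13889 genes were ranked against each member. Cox4i2 (0.20), Hey1 (0.35) and Proser2 (0.43) were nearest to Ghrh. Dpf1 (0.45), Hspa1a (0.52) and Guca1a (0.72) were nearest to Adm, and Rab33a (0.50), Pygl (0.53) and Hspb1 (0.60) to Apln. Hspa1a and Hspb1 encode heat shock proteins. Pth lay nearest to Col18a1 (0.67), Grp (0.95) and Timd2 (0.99), where Grp encodes the hormone gastrin-releasing peptide. The cytokine gene Il10 (0.67) was nearest to Nts, before Lilrb4 (1.30) and Il24 (1.31), and AA467197 (1.13), Il3 (1.16) and Mmp10 (1.19) to Penk.

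Genes that receive these peptides were then examined. Of 16 receptor genes 7 passed the filter on low values. In Th2 against naive WT cells 2 were higher and 3 lower at an adjusted p under 0.05 by limma, beside 32.8% and 33.1% of genes tested. In naive cells by label, Ramp3 was higher and Calcrl lower, 1 each, beside 7.43% and 3.45%, and both calls were lost without the 3 naive libraries with more genes detected (adjusted p = 0.183 and 0.0658, limma). Adrenomedullin binds the receptor Calcrl paired with a RAMP protein. Calcrl stood at 1885 ± 122 (n = 3) in Th2 WT and 20999 ± 1197 (n = 2) in Th2-Th1 WT, and rose by 3.48 ± 0.13 on the log2 scale (adjusted p = 3.9e-13, limma). In Th2 cells it was higher in KO, at 4959, 5524 and 6507 (log2 1.58 ± 0.12, adjusted p = 1.38e-09), and in Th2-Th1 cells lower in KO (log2 -2.15 ± 0.13, adjusted p = 1.08e-09). The change after the move itself differed between KO and WT, as an interaction in limma, for 35.5% of genes tested, Calcrl among them (-3.73 ± 0.18, adjusted p = 2.35e-11).

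Ramp3, a partner that makes Calcrl an adrenomedullin receptor, rose from 91.6 ± 13.4 (n = 4) in naive WT to 1521 ± 140 (n = 3) in Th2 WT (log2 4.05 ± 0.24, limma adjusted p = 1.78e-11). In Th2 KO it was at 42.1, 45.2 and 82.9, lower by limma (log2 -4.78 ± 0.26, adjusted p = 1.73e-11). It rose in KO cells after the move to 2797 ± 1011 (n = 3; log2 5.59 ± 0.26, adjusted p = 7.96e-12). Ramp1, whose pairing with Calcrl gives the receptor for calcitonin gene-related peptide, was lower in Th2 KO (102 ± 9.94) than in Th2 WT (376 ± 31.9; log2 -1.88 ± 0.20, adjusted p = 1.55e-07). Ramp2 did not pass the filter, with a highest value of 7.24. Of the other receptors, Pth1r for parathyroid hormone reached at most 14.5, and Oprm1, an opioid receptor, fell from 48.7 ± 21.4 in naive WT to 7.25 ± 6.48 in Th2 WT (log2 -3.16 ± 0.93, adjusted p = 0.00547), a call lost without Th2 WT replicate 1. Ogfr, which binds met-enkephalin and is not G-protein-coupled, rose after the move in WT (log2 1.06 ± 0.16, adjusted p = 1.48e-05) and in KO (log2 0.53 ± 0.14, adjusted p = 0.0075).

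Of 26 genes for precursor cutting and secretory granules, 21 were tested. After the move, 7 were higher and 4 lower in WT, beside 25.8% and 24.0% of genes tested, and 7 were higher and 2 lower in KO (13% and 13.6%). Furin, the convertase of the secretory pathway, went from 388 ± 113 (n = 3) to 10377 ± 141 (n = 2) in WT, a rise of 4.78 ± 0.29 (log2, limma adjusted p = 1.25e-10). In KO it went from 413 ± 36.7 to 14344 ± 1831 (n = 3; log2 5.11 ± 0.26, adjusted p = 2.96e-11). Cpd, a carboxypeptidase, rose from 18.5 ± 16.3 in naive WT to 1399 ± 141 in Th2 WT (log2 6.57 ± 0.53, adjusted p = 1.38e-09). Cpe, the carboxypeptidase of endocrine granules, rose from 1.59 ± 2.60 to 142.5 ± 33.3 (log2 6.23 ± 0.78, adjusted p = 6.88e-07). Pcsk1, the convertase of endocrine granules, was at 34.1 ± 25.2 in Th2-Th1 WT and 29.3 ± 9.70 in Th2-Th1 KO, higher than in Th2 cells of the same label (adjusted p = 0.0155 and 0.00129), and the WT call was lost without Th2 WT replicate 3 or Th2-Th1 WT replicate 1. The granule genes Qpct and Scg5 were at 0 in Th2 WT and at 154.3 ± 28.9 and 128.5 ± 30.0 in naive WT (adjusted p = 2.4e-09 and 1.35e-09). Vgf, another granule protein, was at 94.4 ± 17.4 in Th2-Th1 KO and 1.74 ± 2.46 in Th2-Th1 WT (log2 5.48 ± 0.85, adjusted p = 5.98e-05). By label, 8 of the 21 were higher and 4 lower in Th2 KO, beside 29.3% and 24.7%.

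**Figure D3:**
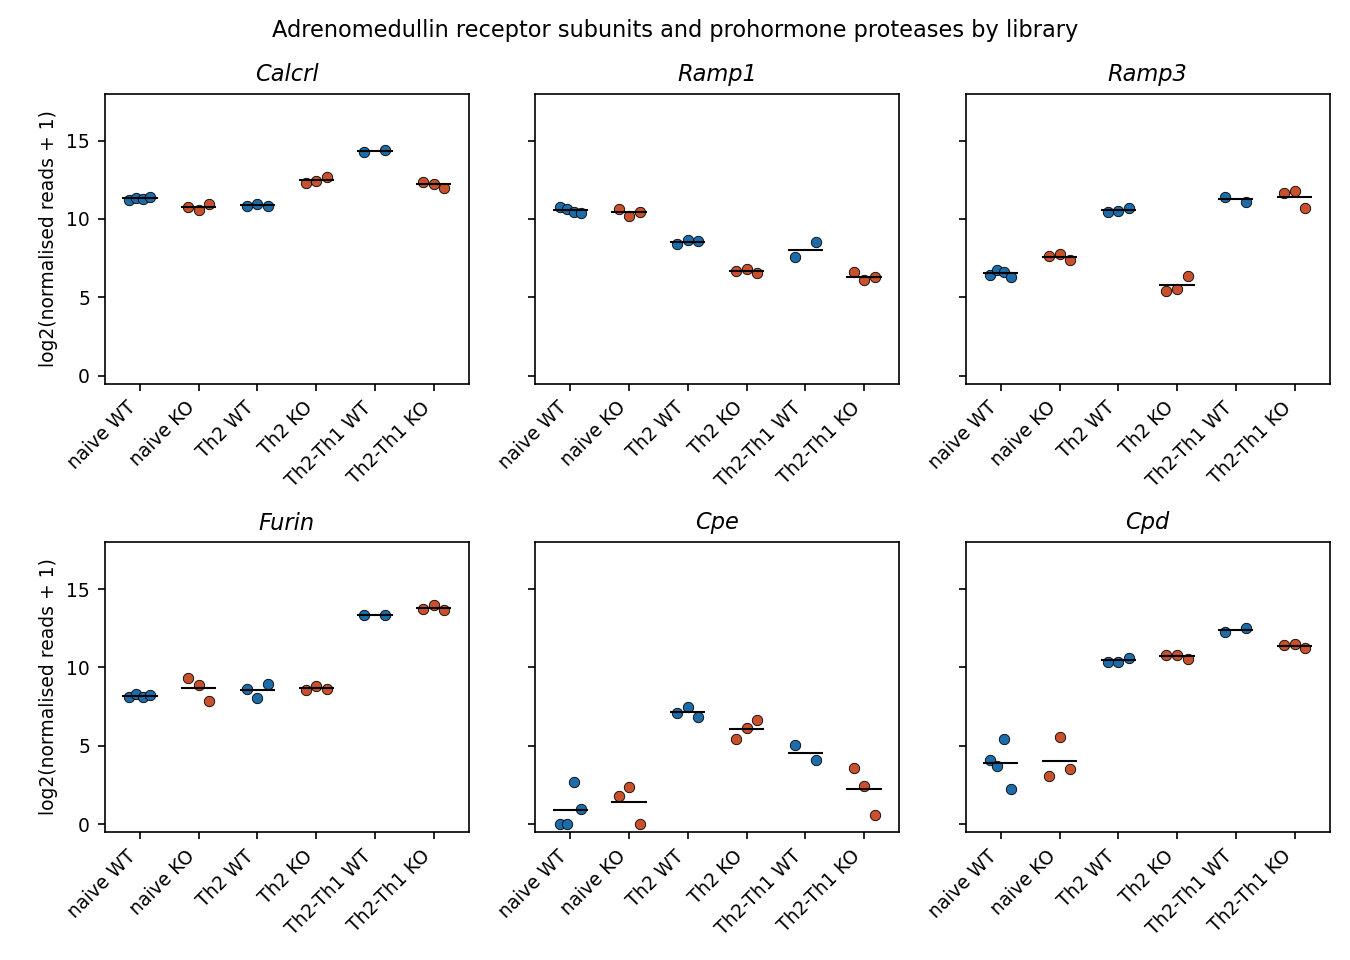
Level of 3 adrenomedullin receptor subunits and 3 precursor-cutting enzymes in each library, as log2(normalised reads + 1); points are libraries (blue WT, orange KO) and black lines are group means. Ramp3 is low in the 3 Th2 KO libraries, and Furin is high in all 5 Th2-Th1 libraries of either label.

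Of 14 peptide-degrading enzymes 10 were tested, and 4 were higher and 4 lower in Th2 KO than in WT, beside 29.3% and 24.7% of genes tested. Dpp4, which clips hormones such as growth hormone-releasing hormone, was lower in Th2 KO (948 ± 97.5 against 4084 ± 550; log2 -2.10 ± 0.15, adjusted p = 1.04e-09). Prep, a prolyl peptidase that can cut neurotensin, rose from 399 ± 29.9 in naive WT to 6553 ± 520 in Th2 WT (log2 4.03 ± 0.12, adjusted p = 4.91e-16).

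Of 98 other peptide hormone genes 97 were in the table and 26 were tested. In Th2 against naive WT cells 10 were higher and 3 lower, beside 32.8% and 33.1% of genes tested, and in Th2 KO against WT 3 were higher and 7 lower, beside 29.3% and 24.7%. Grp was at 221.8, 296.9 and 254.5 in Th2 WT and at 11.5, 17.0 and 11.5 in Th2 KO (log2 -4.18 ± 0.72, adjusted p = 6.54e-05). Inhba, the activin A subunit, was at 230 ± 22.1 in Th2 WT and 25.6 ± 9.27 in Th2 KO (log2 -3.17 ± 0.57, adjusted p = 0.00011), and it rose after the move in WT to 21045 ± 449 (n = 2; log2 6.52 ± 0.64, adjusted p = 8.11e-08). Insl6, of the insulin-like family, was lower in Th2 KO (55.9 ± 19.2 against 707 ± 90.5, log2 -3.68 ± 0.32, adjusted p = 1.27e-08). Among the 3 that were higher, Iapp had a mean of 42.0 in Th2 KO and 2.02 in Th2 WT. Its log2 difference was 4.12 ± 0.92 (adjusted p = 0.000861, limma), and the WT mean lay under the floor of 3 reads per library (6.37). Stc2, a stanniocalcin, and Metrnl rose from naive to Th2 WT (log2 9.06 ± 0.50 and 9.22 ± 0.69, adjusted p = 5.39e-12 and 5.01e-10). Neither passed the limma test by label in Th2 cells (adjusted p = 0.302 and 0.472), where the 6 groups share 1 estimate of each gene's spread. Their libraries did not overlap there. Stc2 was at 3817 to 4160 in KO and 6040 to 7397 in WT, and Metrnl at 1398 to 1570 in KO and 813 to 1008 in WT. Without overlap, 29.8% of genes tested were lower and 34.8% higher.

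Genes beside the members were not used to choose them. They lie close to the members and were read in the same libraries, so they are not an independent reading. Of 12 annotated genes within 50 kb, 6 were tested, and these 6 rose from naive to Th2 WT, beside 32.8% of genes tested. Among them, A830012C17Rik had a mean of only 6.45 in Th2 WT, near the floor of 3 reads per library (6.37). In Th2 KO against WT, 3 were lower and none higher, beside 24.7% and 29.3%. Manbal, Rpn2 and Mroh8 all lie near Ghrh, so these counts lean on a single member. The lncRNA Gm28863 overlaps Adm and was not among the genes tested, and reads shared by overlapping genes cannot be told apart here. Manbal, 18859 bases from Ghrh, was at 802.5, 653.2 and 823.2 in Th2 WT and at 91.0, 105.2 and 63.9 in Th2 KO (log2 -3.14 ± 0.29, adjusted p = 2.36e-08), and it fell after the move in WT by 2.81 ± 0.32 (log2, adjusted p = 5.81e-07). Rpn2, a subunit of the oligosaccharyl transferase 3178 bases from Ghrh, was lower in Th2 KO by less (log2 -0.53 ± 0.09, adjusted p = 8.93e-05). Sbf2, 12723 bases from Adm, was at 141 ± 28.3 in Th2 KO and 516 ± 35.0 in Th2 WT (log2 -1.88 ± 0.24, adjusted p = 2.12e-06). Btbd10, 14049 bases from Pth, did not pass the test by label in Th2 cells (log2 0.11 ± 0.13, adjusted p = 0.518). The lncRNA A830012C17Rik, 9215 bases from Penk, rose after the move in WT (log2 5.28 ± 0.84, adjusted p = 3.11e-05) and in KO (log2 3.94 ± 0.75, adjusted p = 0.000505).

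**Figure D4:**
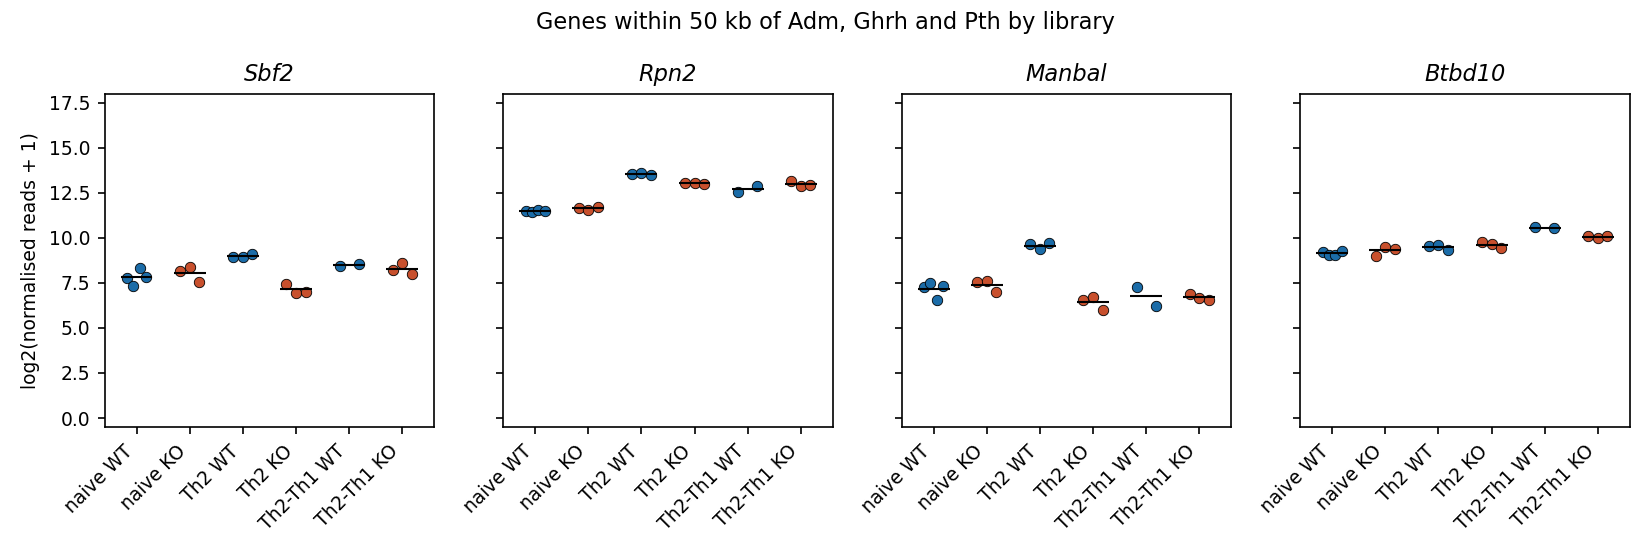
Level of 4 genes within 50 kb of Adm, Ghrh or Pth in each library, as log2(normalised reads + 1); points are libraries (blue WT, orange KO) and black lines are group means. Manbal and Sbf2 are lower in the 3 Th2 KO than in the 3 Th2 WT libraries, and Btbd10 overlaps between them.

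The peak lists show where the chromatin of these genes was marked or open, with 1 list per condition and so no replicate error. Peaks, scores and fold enrichments are the authors' own. ATAC-seq, which marks open chromatin, gave 92129 peaks in Th2 WT and 58523 in Th2 KO, and 43.4% of the WT peaks had no overlapping KO peak. Within 50 kb every member had fewer ATAC peaks in KO: 10 against 5 for Pth, 10 against 6 for Adm, 6 against 3 for Nts, 9 against 5 for Ghrh, 10 against 4 for Apln and 6 against 4 for Penk. The median gene had 10 and 7, and 97.2% and 96.4% of placed genes had at least 1. The KO list was shorter and the share of placed genes with fewer peaks in KO was not counted, so no more is read from these counts.

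Just inside the start of Apln, a 504-base ATAC peak (chrX:48034302-48034805, fold enrichment 3.84) was listed in Th2 WT, and the nearest KO peak lay 11569 bases from the gene. Over the gene body, 85.7% of placed genes had an ATAC peak in WT and 82.7% in KO. Adm had a peak over its start in both lists, of 357 bases in WT, covering the whole promoter printed above, and 101 in KO, over its end. Nts likewise had one in both, of 94 and 110 bases, reaching the end of its promoter. The Apln promoter lay under a 924-base H3K4me1 peak of naive WT. Ghrh had 4 ATAC peaks over its body in WT and 1 in KO. Pth had none over the gene, and the nearest lay 2863 bases upstream in WT and 2983 in KO. A peak missing from a list is a call at that list's threshold and depth, which differed between lists.

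H3K27ac marks active promoters and enhancers, and H3K4me1 marks enhancers. An H3K27ac peak lay within 50 kb of 91.5% of placed genes in Th2 WT and 92.1% in KO, and over the body of 76.4% and 76.1%. Adm had a 204-base H3K27ac peak just inside the gene in Th2 WT and none within 50 kb in KO, although the KO list was longer (40734 against 31236 peaks) and 22.1% of WT peaks had no overlapping KO peak. The counts within 50 kb in WT and KO went the other way for Nts (0 and 2, both over the gene), Ghrh (3 and 5), Penk (1 and 3) and Pth (6 and 7), and were 3 in each for Apln. Pth had an H3K27ac peak 1599 bases upstream in WT, 3917 bases long, and one of 2458 bases in KO. For H3K4me1 the shares within 50 kb were 92.4% in naive WT, 94.0% and 94.6% in the 2 Th2 WT lists and 95.1% in Th2 KO, and over the body 80.2%, 82.6%, 82.0% and 83.4%. Both Th2 WT lists had a long H3K4me1 peak over the Pth promoter, of 7684 and 6636 bases. In naive WT the nearest H3K4me1 peak was 14960 bases away, and in Th2 KO a 4113-base peak stopped 762 bases short of the gene (21.0% of peaks in the second Th2 WT list had no overlapping KO peak). Ghrh had 3 H3K4me1 peaks over its body in each Th2 WT list, 1 in Th2 KO and none in naive WT. Adm carried H3K4me1 over its start in naive WT already (4447 bases), more widely in Th2 WT (7915 and 8500 bases) and less widely in KO (3842 bases). Nts had no H3K4me1 peak within 50 kb in naive WT or the first Th2 WT list, 1 in the second Th2 WT list and 2 in Th2 KO, 1 of them over the gene. Apln had an H3K4me1 peak over its body in naive WT and in Th2 KO, where its RNA was low, and in neither Th2 WT list.

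**Figure D5:**
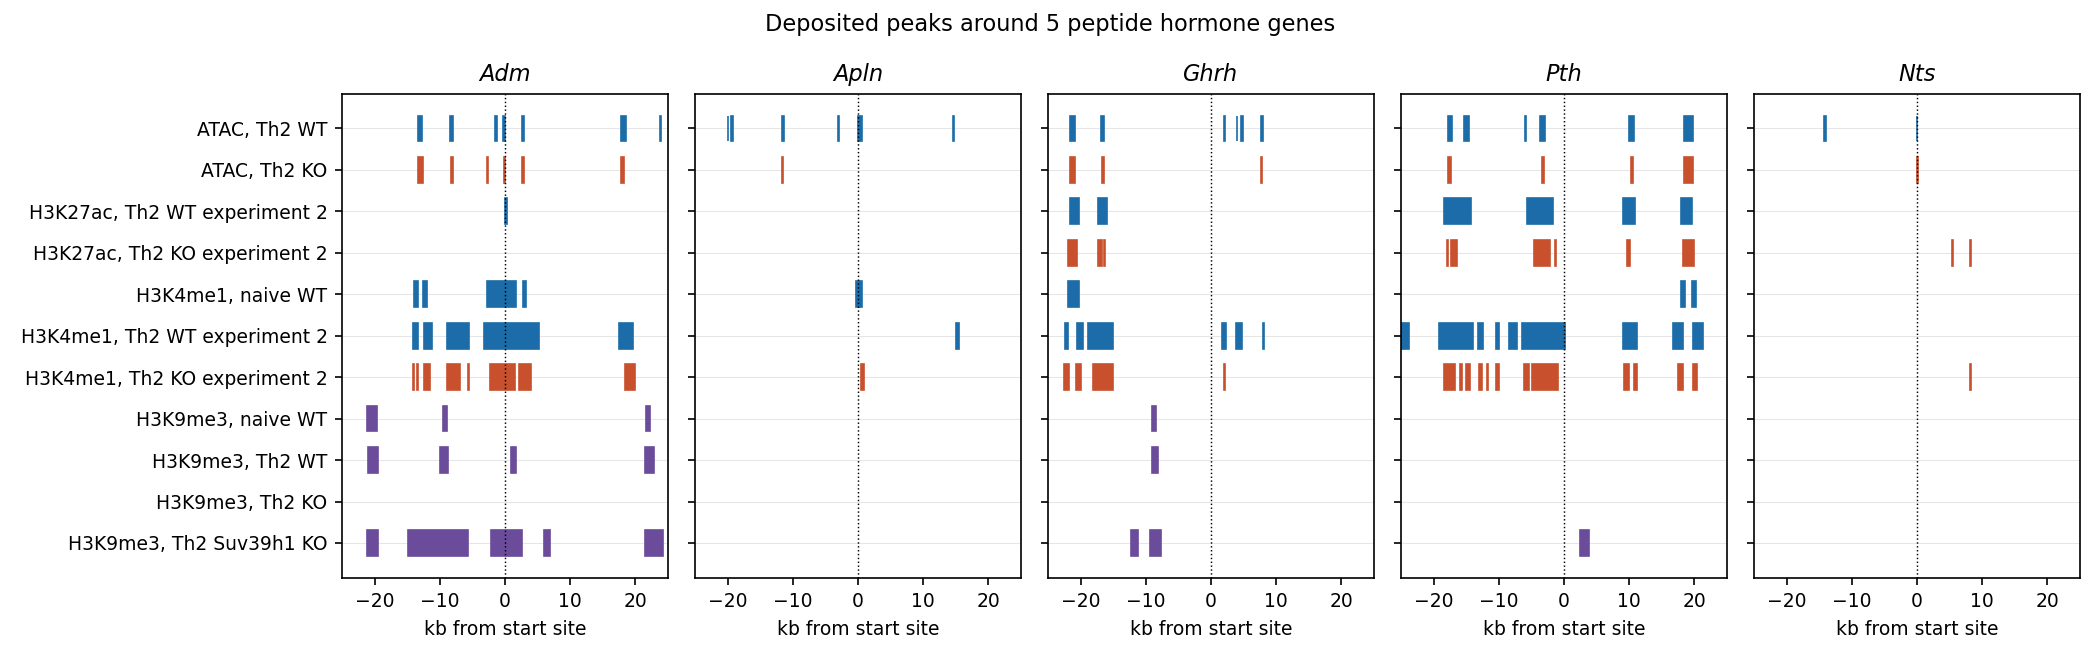
Peaks of 11 deposited lists within 25 kb of the start site of 5 members, drawn to scale in the direction of transcription (first listed start for Ghrh; Penk has no listed start). Blue marks WT, orange KO and purple every H3K9me3 list; the wide H3K4me1 bar over the Pth start is present in Th2 WT and stops short of the gene in Th2 KO.

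H3K9me3, the mark that SETDB1 places, was listed within 50 kb of 2 members. Adm had 3 peaks in naive WT and 4 in Th2 WT, one of which, of 750 bases, lay over the gene, and Ghrh had 2 in each. Neither had any in naive KO or Th2 KO, where 6.47% and 4.96% of placed genes had one, against 55.2% and 56.7% in naive and Th2 WT. Over the body, 16.0% and 17.0% of placed genes had one in naive and Th2 WT, and 1.80% and 1.67% in naive and Th2 KO. Of the WT peaks in the genome, 92.3% in naive and 95.6% in Th2 cells had no overlapping KO peak. The H3K9me3 peak over Adm was listed in Th2 WT, the group where its RNA was highest. Pth, Nts, Apln and Penk had no H3K9me3 peak within 50 kb in any of these 4 lists. In the Suv39h1-/- list, where 91.5% of placed genes had one (43.7% over the body), the counts were 5 for Adm, 4 for Ghrh, 3 for Penk, 1 for Pth and 0 for Nts and Apln.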

How the data were processed

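The members and gene lists were chosen with earlier results of these data known. The RNA table holds signal values that the authors made as read counts per gene divided by 1 size factor per library; whole reads were recovered from 100% of values within 0.01. The file held 2 identical copies of 39179 genes, and the first was used. The submitters' processing notes name cutadapt, TopHat2 2.0.5, BWA, DESeq and MACS2 and the mm10 genome. No label names the gene annotation used for counting. Peak scores, fold enrichment (a ratio to background) and -log10 p were deposited by the authors; no header names the caller of the H3K9me3 lists. Scores served only as an alternative filter.

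The 17254 genes that reached 10 in 2 or more libraries were tested with limma 3.58.1 (trend) on log2(value + 1), with all 18 libraries in 1 fit, 12 residual degrees of freedom and Benjamini-Hochberg adjustment at 0.05. The counts recovered from the authors' values were tested with edgeR 4.0.16 and DESeq2 1.42.0 as alternatives. On simulated counts for Th2 KO against WT (15270 genes), 60% of 2-fold and 100% of 4-fold changes were found, with 16 false calls. The floor for groups at 0 was 3 reads per library, for counting error only. Positions came from RefSeq on GRCm38.p6, matched for 94.0% of tested genes, and a peak counted as near when within 50 kb of the gene. Named besides the members were Setdb1, up to 4 called genes per list and comparison with the largest change (a selection of these is given, partly picked after their values were seen), receptors, and the 3 genes of most similar profile, without predicted genes. R 4.3.3 and Python 3.11.15 were used. Alternatives are in the closing section.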

Additional observations from a re-analysis of the deposited data

Results flagged for a closer look

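Among the members, Nts had a value of 5.43 in naive WT replicate 3, from 3 reads, and 0 in the other 3 libraries of that group. That library detected the most genes of all naive libraries (25556). Metrnl likewise had 4.99 in 1 naive WT library and 0 in the others. Chance sets 1 library apart in about 1 of 20 groups of continuous values, but where 3 of 4 libraries are at 0 any read in the last one does so, and that rate does not hold for these genes. Adm was lower after the move in WT and higher in KO, a gap of 7.57 on the log2 scale. Its libraries did not overlap between the groups of either label (30.1% of genes tested downward in WT, 24.7% upward in KO). This gap was not tested because the members were chosen on their levels. Apln was higher in naive KO and lower in Th2 KO than in WT, a gap of -8.53 on the log2 scale, also not tested.

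The change after the move differed between KO and WT, as an interaction in limma at an adjusted p under 0.05, for 35.5% of genes tested. Among genes named beside the members it was more positive in KO for Ramp3 (4.90 ± 0.39, log2, adjusted p = 2.28e-08), Mroh8 (4.76), Vgf (4.06), Manbal (3.09), Stc2 (2.38), Insl6 (1.88), Sbf2 (1.65), Rpn2 (0.83) and Prep (0.67). It was more negative in KO for Calcrl (-3.73 ± 0.18, adjusted p = 2.35e-11), Scg5 (-2.39), Setdb1 (-1.43) and Btbd10 (-0.61). Mroh8, 49804 bases from Ghrh, was at 0 in Th2-Th1 WT.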

How the results depend on the processing

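No member whose libraries were separated changed direction under the alternatives run. Depth limits the naive values, where 1 to 4 reads decide a level. In naive KO against WT, 1877 genes were called. Without the 3 naive libraries this was 890, with only the 2 groups in the fit 407, and leaving out 1 library gave 1076 to 2499. Fits on fewer libraries kept the genes of the full filter; redoing it, chosen after seeing the data, gave 965 and 1028. Listed genes called there were 9, then 4 without the 3 libraries (4 with the filter redone), 5 with the 2 groups only, and 7 to 9 leaving out 1. Members separated there were 1, then 2 without the 3 libraries, and 1 to 3 leaving out 1. The Setdb1 difference in naive cells kept its sign and lost its call with no filter (-0.38, adjusted p = 0.0625), without the 3 libraries (-0.31, 0.341; 0.32 with the filter redone), with the 2 groups only (-0.38, 0.0686; 0.0647 with the filter redone), and in 5 of the 7 fits that left out 1 library (-0.45 to -0.33, highest adjusted p 0.155, without naive KO replicate 2). In Th2-Th1 KO against WT, leaving out 1 library gave 3847 to 5181 called genes beside 5810, 13 to 21 listed genes beside 21, and 4 to 5 separated members. The lowest came without Th2-Th1 WT replicate 2, the lone WT library being assumed to vary like the other groups. TMM scaling left 2 separated members there and moved the median of all genes in Th2 KO against WT from 0.13 to 0.24. The causes were not tested.

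Replicate numbers did not pair the libraries (r over 0.1 in 1 of 16 same-number pairs; 3 of 18 libraries correlated best with their own number). With the replicate block, 9359 genes were called in Th2 KO against WT beside 9324, and Setdb1 differed by -0.42 in naive cells.

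Peaks summed over the 13 lists within 50 kb, then within 10 kb, were 69 and 23 for Pth, 59 and 25 for Adm, 14 and 5 for Nts, 66 and 16 for Ghrh and 35 and 6 for Apln. Within 100 kb they were 104 for Pth, 28 for Nts, 150 for Ghrh and 63 for Apln. With peaks at or above each list's median score they were 45 for Pth, 30 for Adm, 3 for Nts, 41 for Ghrh, 9 for Apln and 11 (of 25) for Penk.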
